A study of Mus musculus with 2 samples.

Results

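The immunoglobulin variable (V) genes of liver immune cells were described here, taken as all rows of the authors' filtered RNA count table whose symbol begins with Ighv (heavy chain), Igkv (kappa light chain) or Iglv (lambda light chain). This gave 51 of the 13528 genes of that table, of which 10 were Ighv genes on chromosome 12, 38 were Igkv genes on chromosome 6 and 3 were Iglv genes on chromosome 16. The cells were CD45+ cells of C57BL/6 mouse liver, labelled as 10 weeks old, in which RNA and 49 surface antibodies were counted per cell. TG denotes dnTGFβRII mice, which carry a dominant negative TGF-β receptor type II transgene driven by the CD4 promoter (B6.Cg-Tg(Cd4-TGFBR2)16Flv/J), and are a mouse model for primary biliary cholangitis. The WT group was wild type mice. Each genotype was captured in a library shared with a second strain: IFN-γ ARE-Del-/- mice were captured alongside TG, and P40-/-IL-2Ra-/- mice alongside WT. Only the 4647 TG and 7282 WT cells named in the deposited cell table were used. How many mice stand behind each genotype is not given in the sources used here. With 1 library per genotype there is no replicate, so no test between genotypes was possible, genotype and library cannot be told apart, and every 95% interval given here covers counting error only.

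A B cell builds its receptor by joining 1 V gene to a short D and J segment for the heavy chain, or to a J segment for the light chain. In most B cells a single heavy and a single light V gene are expressed, and the joint made by this rearrangement is passed on to the cell's clone, while 1 V gene can be used by many clones. Light chains come from the kappa or the lambda locus, and mouse B cells use kappa far more often. Plasma cells secrete antibody and hold much more immunoglobulin RNA per cell than other B cells do. The V genes encode most of the antigen-binding part of the receptor, and the last codons of a V gene, from a conserved cysteine onward, begin the hypervariable loop that spans the joint.

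All 51 genes were annotated as functional V genes (GENCODE M21, build GRCm38), with coding lengths of 338 to 370 bases, so coding length differed little among them. The RNA was captured by its poly-A end, and how well V transcripts of each locus were recovered was not tested. Levels of heavy, kappa and lambda V genes can therefore not be set side by side. The last 60 coding bases of the genes that the results turn on are printed below, 5′ to 3′ on the coding strand, with capitals from the conserved cysteine codon to the end of the V segment. Igkv14-126 (chr6:67896172-67896642, plus strand) differed in share between the 2 named B cell classes, and the 3 Iglv genes gave the lambda cells. Igkv17-127 and Igkv17-121 are near copies of each other, and Ighv7-3 and Igkv9-120 came from the cell with most V transcripts. The lambda genes lie on the minus strand at chr16:19085017-19085500 (Iglv1), chr16:19260401-19260859 (Iglv2) and chr16:19241207-19241690 (Iglv3). The other kappa genes shown lie on the plus strand at chr6:67861153-67861659 (Igkv17-127), chr6:68036812-68037318 (Igkv17-121) and chr6:68049983-68050456 (Igkv9-120), and Ighv7-3 lies on the minus strand at chr12:114153180-114153644.
Igkv14-126: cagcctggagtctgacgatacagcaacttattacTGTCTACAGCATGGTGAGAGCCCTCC
Iglv1: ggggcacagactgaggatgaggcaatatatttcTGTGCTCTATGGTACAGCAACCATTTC
Iglv2: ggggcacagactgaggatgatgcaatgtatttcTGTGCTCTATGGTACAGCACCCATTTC
Iglv3: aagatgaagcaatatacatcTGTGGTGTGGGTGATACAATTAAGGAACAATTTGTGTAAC
Igkv17-127: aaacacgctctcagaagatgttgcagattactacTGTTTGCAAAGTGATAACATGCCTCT
Igkv17-121: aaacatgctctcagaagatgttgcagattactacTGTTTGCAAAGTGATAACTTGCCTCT
Igkv9-120: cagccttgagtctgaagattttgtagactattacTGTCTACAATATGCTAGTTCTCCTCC
Ighv7-3: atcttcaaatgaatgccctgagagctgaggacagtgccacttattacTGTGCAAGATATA
Near copies matter for counting, because a read that matches both genes can be split or lost. Of the transcript's 50-base windows, 40.6% of Igkv17-127 also occurred in another V gene, most often Igkv17-121. For Iglv1 the share was 22.2%, most often with Iglv2, and for Igkv14-126 and Iglv3 it was 0. The median was 22.2% over the members and 23.2% over the other 165 annotated functional V genes, and 12 members shared no window, so the levels of genes with a near copy are uncertain.

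The filtered table did not hold the same V genes for both genotypes. Genes set to 0 in a genotype were found in few of its cells: no V gene left out was found in more than 9 cells, and the members kept were found in at least 8 TG or 10 WT cells. The exact rule is not given in the sources used here, and it was not a minimum of cells alone, since Igkv16-104 was set to 0 in TG with 9 cells. Of the 51 members, 32 were kept in both genotypes (1 Ighv, 28 Igkv and 3 Iglv), 17 were set to 0 in WT (9 Ighv and 8 Igkv) and 2 were set to 0 in TG (Igkv10-94 and Igkv16-104). The unfiltered library files held 132 WT molecules (UMIs, unique molecular identifiers) of those 17 genes and 21 TG UMIs of the other 2. For every member that was kept, the filtered and unfiltered counts were identical (49 of 49 in TG, 34 of 34 in WT). Over the same cells the unfiltered files held 8294 V UMIs in TG and 3343 in WT, and the members held 77.3% and 67.5% of them. In the filtered table, heavy chain V genes were therefore mostly not measurable between genotypes, since Ighv3-6 alone was kept in both.

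V transcripts were concentrated in the 2 named B cell classes and in 1 small group of plasma-cell-like cells, and were close to absent elsewhere. In mature B cells the members' level was 432 CPM (UMIs per 1000000 RNA UMIs of the class, 410 to 455) in TG and 271 CPM (254 to 288) in WT, and in cells named immature B it was 516 CPM (477 to 558) and 376 CPM (339 to 415). At least 1 V UMI was found in 59.6% of 1068 TG and 40.2% of 1494 WT mature B cells, at median depths of 2923 and 2044 UMIs per cell. In cells named immature B the shares were 80.8% of 193 and 69.3% of 202, at median depths of 5965 and 4426. With every cell thinned to 1000 UMIs, which left out no cell, mature B cells gave 31.8% in TG and 22.0% in WT, and cells named immature B gave 33.7% and 34.2%. These shares still carry the filter, since more members were kept in TG. With only the 32 members kept in both genotypes, the thinned shares were 26.9% (24.2 to 29.6) in TG and 21.15% (19.1 to 23.3) in WT for mature B cells, and 34.2% (27.5 to 41.4) and 30.2% (24.0 to 37.0) for cells named immature B. With all V genes of the unfiltered files they were 38.7% (35.7 to 41.7) and 30.99% (28.7 to 33.4), and 38.3% (31.5 to 45.6) and 35.6% (29.1 to 42.7). Each gene set was thinned in a separate random draw, so small differences between gene sets can come from the draw. At equal depth the TG share was thus the higher in mature B cells under all 3 gene sets, while in the cells named immature B the intervals of TG and WT overlapped. Counting all V genes of the unfiltered files raised the mature B cell level to 570 CPM for TG and 388 CPM for WT.

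Outside the B cells and the plasma-cell-like group, 2.74% of 3354 TG cells and 0.933% of 5572 WT cells held a V UMI, at median depths of 3400 and 2766. Among T, NKT and NK cells, which do not rearrange these genes to expression, the shares were 2.56% and 0.648%, and shares of this size are read as background. Most of the V-positive cells outside the B cells and the plasma-cell-like group held a single UMI: 74 of the 92 TG cells and 38 of the 52 WT cells. By UMIs a few cells dominated: 181 of the 304 TG V UMIs lay in 1 cell and 324 of the 402 WT V UMIs in 2 cells. Among these V-positive cells outside B cells, 40.2% in TG and 44.2% in WT also held Cd79a, a receptor partner of B cells, against 21.5% and 4.46% of the other cells. Scrublet, a doublet caller, marked 0.839% of TG and 3.31% of WT cells, and without them the share outside B cells was 2.58% and 0.753%. The part of doublets in this background was not tested.

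**Figure D1:**
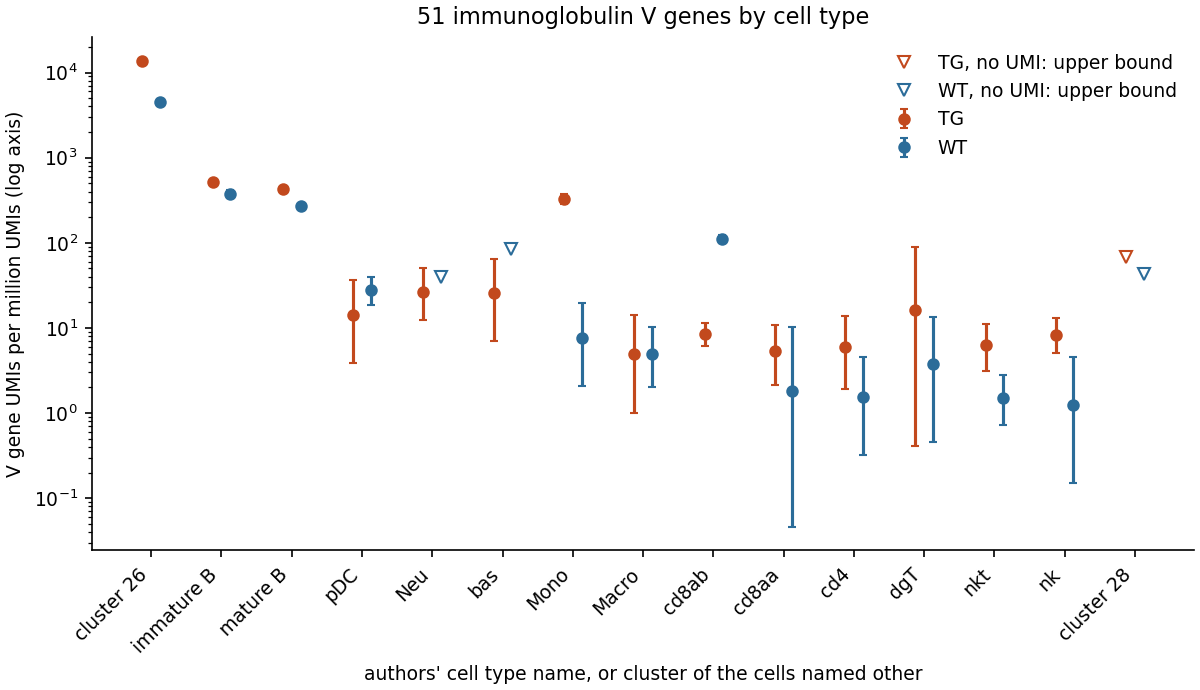
Summed level of the 51 V genes in CPM (log axis) for each named cell type in TG and WT, with exact Poisson 95% intervals, and open triangles at the upper limit where no UMI was found. The B cell classes stand at 271 to 516 CPM, the plasma-cell-like cluster 26 stands far above them, and most other types stand far below, apart from WT cd8ab cells and TG monocytes, where single cells hold most UMIs.

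A few cells carried a large part of all V transcripts. The 3 highest cells held 34.1% of the members' UMIs in TG and 26.02% in WT, whereas among B cells the 3 highest held 3.27% and 2.58%. Only 32.5% of the members' UMIs in TG lay in cells named B, against 60.1% in WT. Gene by gene, the median share in the 3 highest cells was 44.8% over the 49 members kept in TG and 38.5% over the 34 kept in WT, and it exceeded 50% for 20 and 7 of them. Among B cells the most even members were Iglv1 in TG, with 11.01% in its 3 highest cells, and Iglv3 in WT, with 7.77%. The total level of 17 members in TG and 6 in WT lay mostly outside cells named B.

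Of the cells with at least 20 V UMIs over all V genes, 18 of 21 in TG and 8 of 11 in WT lay in cluster 26 of the deposited clustering, part of the cells named "other", with 32 TG and 14 WT cells. Cluster 26 is called plasma-cell-like here: Jchain, which links secreted IgA and IgM, was among its 10 leading genes by fold, and the 6 plasma cell markers (Jchain, Mzb1, Xbp1, Sdc1, Prdm1, Derl3) summed to 34700 CPM in TG and 28840 CPM in WT, against 352 and 285 in mature B cells. The 8 B cell markers were low in it, at 1878 and 1152 CPM against 9696 and 8690 in mature B cells. The antibody to CD138, a plasma cell surface protein, did not mark it, with medians of 0.5 and 0. The members reached 13570 CPM in TG and 4492 CPM in WT there. Over all V genes of the unfiltered files the levels were 17700 and 8329 CPM, so the filter widened the gap between the genotypes. The other cells named "other", in cluster 28 (6 TG and 15 WT cells), held 0 V UMIs, which allows up to 68.6 and 43.5 CPM by the exact Poisson limit.

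Counted over all V genes of the unfiltered files, 21 TG and 11 WT cells held at least 20 V UMIs. Of these, 19 TG and 10 WT cells also held at least 50 Jchain UMIs, and they carried 65.7% and 38.8% of all V UMIs of their genotype. In each such cell 1 light V gene led, and in all but 1 TG cell, which held no heavy V UMI, 1 heavy V gene led. The leading gene held a median of 94.2% of the cell's heavy V UMIs in TG and 95.2% in WT, and of the light V UMIs 90.6% and 93.8%. All 19 TG and all 10 WT cells carried kappa. The constant gene was Igha (IgA, the antibody class of mucosal surfaces) in 15 TG cells, Ighg1 in 3 and Ighg2b in 1, and in WT it was Igha in 8 and Ighm in 2. The 19 TG cells used 14 different heavy and 15 different light V genes, and the 10 WT cells used 9 and 10.

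The TG cell with most V UMIs held 1177, of which 397 were Ighv7-3 and 682 were Igkv9-120, with Igha as its constant gene. The next TG cells held 617 UMIs (Ighv1-72 with Igkv12-46, of which the latter had 571, and Ighg1) and 522 UMIs (Ighv1-52 with Igkv4-58, of which the latter had 398, and Ighg2b). In WT the highest cell held 247 (Ighv1-22 with Igkv6-15, of which the latter had 175, and Igha), followed by 232 (Ighv1-75 with Igkv10-96, of which the latter had 187, and Igha) and 216 (Ighv3-6 with 155, Igkv1-110 with 31, and Igha). The second of these WT cells was named cd8ab, and held 279 Jchain UMIs, 2 Cd3e UMIs and 21700 RNA UMIs, the most of any WT cell. A second cd8ab cell in WT (162 V UMIs) and a monocyte in TG (198 V UMIs) likewise held over 50 Jchain UMIs. These single cells set the level of whole genes: of the 692 TG UMIs of Igkv9-120 outside B cells, 682 lay in 1 cell, and of the 194 WT UMIs of Igkv10-96 outside B cells, 187 lay in 1 cell. Both were the members with most UMIs outside B cells in their genotype.

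Among these V-rich cells the same pair of leading chains recurred in 1 case. Ighv1-53 with Igkv4-50 led in 2 TG cells of cluster 26, with 458 and 216 V UMIs and Igha in both. In the second of them Ighv1-53 held 5 of 7 heavy V UMIs (71.4%), so under a rule of at least 80% in the unfiltered files no pair occurred in more than 1 cell of cluster 26 (12 pairs in TG and 7 in WT). A further TG cell with Igha held 32 Igkv4-50 UMIs and no heavy V UMI. Sequence across the joint was not used, so whether these cells belong to 1 clone was not tested.

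**Figure D2:**
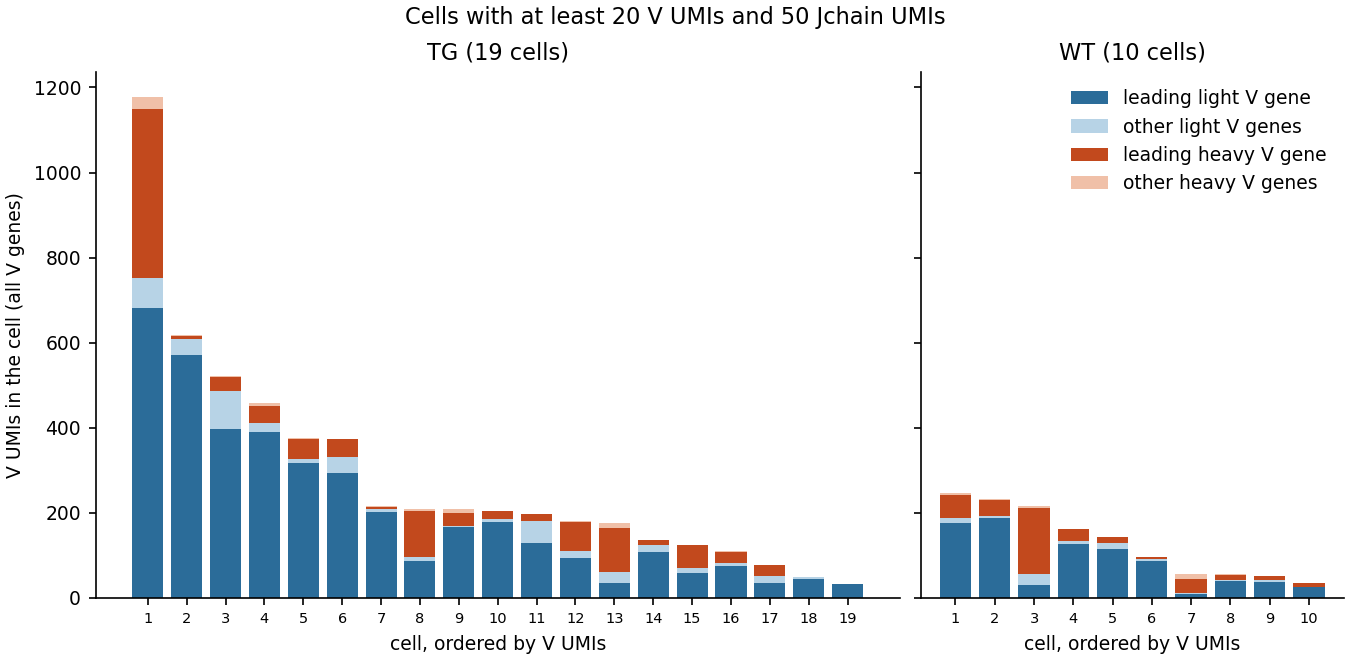
Each bar is 1 cell with at least 20 V UMIs and at least 50 Jchain UMIs (19 in TG, 10 in WT), ordered by its V UMIs over all V genes of the unfiltered files, and split into the leading light, other light, leading heavy and other heavy V genes. TG cells reach 1177 UMIs and WT cells 247, and the leading light and heavy genes make up most of nearly every bar.

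To describe usage with cells as the unit, a B cell was assigned to a V gene when that gene had at least 2 UMIs and at least 80% of the cell's V UMIs of that chain. By this rule 328 of 1261 TG B cells (26.01%, 23.6 to 28.5) and 208 of 1696 WT B cells (12.3%, 10.7 to 13.9) received a light chain gene, and 20 and 5 received a heavy chain gene. The rule needs at least 2 UMIs, and the median depth was higher in TG in both named B cell classes. The assigned shares were not recomputed at equal depth, so they are not read as a difference between genotypes. Of the B cells with at least 3 light V UMIs, 62.7% (178 of 284) in TG and 84 of 140 in WT had at least 80% of them from 1 gene. Counted over all V genes of the unfiltered files, these were 56.8% (196 of 345) in TG and 49.7% (87 of 175) in WT, so a single light V gene did not dominate in a large part of the cells. The background outside B cells and cluster 26 was 11 of 3354 TG and 10 of 5572 WT cells with an assigned light chain gene.

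Among the B cells that received a light chain gene, usage was broad, with no gene far ahead apart from Iglv1. Of these assigned cells, 82 of 328 in TG and 48 of 208 in WT were named immature B. Among all B cells the numbers were 193 of 1261 and 202 of 1696. Pooled usage thus weighs the cells named immature B above their share of B cells. Iglv1 was used by 10.4% of assigned TG B cells (34 cells, 7.29 to 14.2) and 11.1% of WT (23 cells, 7.14 to 16.1). It was also the leading V gene outside B cells and cluster 26, leaving aside cells with at least 20 V UMIs, with 24 UMIs in TG and 17 in WT, and the part of this background in its usage was not tested. By the constant genes, which assigned more B cells, all lambda cells together were 4.58% in TG and 5.39% in WT, less than Iglv1 alone here. The 10 Igkv genes with most assigned cells were each used by 2.74% to 6.25% in either genotype. Igkv19-93 stood at 4.27% in TG and 6.25% in WT. Igkv1-135 stood at 5.49% and 4.33%, and Igkv14-126 at 3.66% and 6.25%. The intervals of genes next to each other in this order overlapped in both genotypes. Igkv10-96 was at 4.88% and 3.85%, and the near copies Igkv17-127 and Igkv17-121 were both at 3.66% and 5.77%. Igkv6-15 was at 3.96% and 4.81%, Igkv9-120 at 4.27% and 4.33%, Igkv5-39 at 3.66% and 4.81%, and Igkv12-44 at 2.74% and 4.33%. Among the lambda genes, Iglv2 was used by 4.27% of TG and 1.44% of WT assigned cells (difference 2.83 percentage points, -0.38 to 5.75), and Iglv3 by 2.44% and 4.81% (difference -2.37, -6.37 to 0.80).

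Among genes with at least 20 assigned cells, every interval of the TG minus WT difference included 0. The highest differences were Igkv1-135 at 1.16 percentage points (-3.03 to 4.80), Igkv10-96 at 1.03 (-2.98 to 4.49) and Igkv9-120 at -0.06 (-4.13 to 3.38). The lowest were Igkv14-126 at -2.59 (-7.02 to 1.08) and both Igkv17-127 and Igkv17-121 at -2.11 (-6.44 to 1.47). Over the 31 light genes kept in both genotypes, usage in TG and WT had a Spearman correlation of 0.61 and a Pearson correlation of 0.76, as a description across genes that share cells and libraries. The shares are of all light-assigned cells, including those of genes set to 0 in the other genotype. More genes were set to 0 in WT, so the filter raised WT shares of the common genes relative to TG. Over the 72 light genes used in the unfiltered files the correlations were 0.64 and 0.83. The interval excluded 0 for 2 of the 31 in the filtered table, both with fewer than 20 cells and named after their values were seen. These were Igkv3-5, with 13 TG and 2 WT cells (difference 3.00 percentage points, 0.04 to 5.79), and Igkv8-27, with 7 and 0 cells (difference 2.13, 0.01 to 4.34). In the unfiltered files the interval of Igkv8-27 included 0 (5 and 0 cells, difference 1.39, -0.43 to 3.20), and there Igkv4-91, which is not in the filtered table, was the other light gene whose interval excluded 0 (1 and 5 cells, difference -1.88, -4.68 to -0.11).

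**Figure D3:**
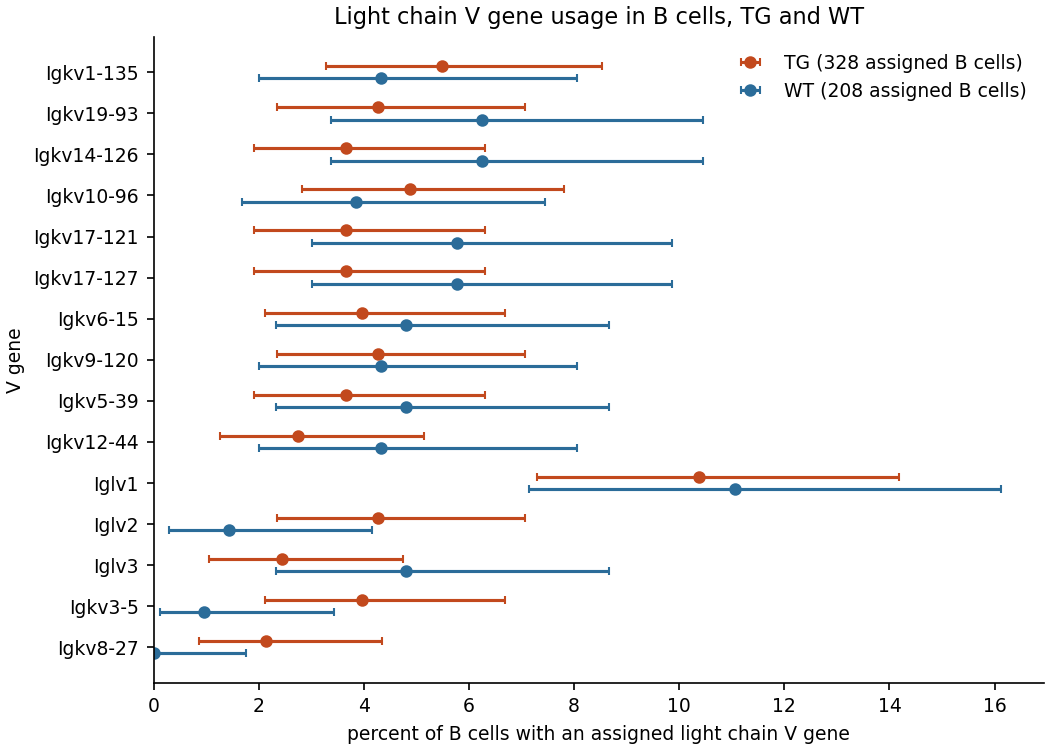
Percent of B cells with an assigned light chain V gene that used each gene, TG and WT, with Clopper-Pearson 95% intervals. Iglv1 leads in both genotypes at 10.4% and 11.1%, and the intervals of TG and WT overlap for every gene shown.

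By family, the Igkv1 genes (5 members) took 11.9% of assigned TG cells (39 of 328) and 5.29% of WT cells (11 of 208), a difference of 6.60 percentage points (1.61 to 11.2). It was the only light chain family whose interval excluded 0, and was singled out after its values were seen. Of its members, Igkv1-88 (5 TG cells) and Igkv1-122 (4 TG cells) were set to 0 in WT by the filter, and in the unfiltered files the difference was 6.31 (1.54 to 10.7). In cells named immature B, Igkv1-135, Igkv1-110 and Igkv1-117 were at 10.98%, 6.10% and 4.88% in TG and 4.17%, 0% and 2.08% in WT. In mature B cells they were at 3.66%, 0.407% and 0.813% in TG and 4.38%, 0% and 0.625% in WT. When at least 5 UMIs and 90% were required, which left 3.73% of TG and 0.825% of WT B cells assigned, the Igkv1 difference was -2.89 (-27.4 to 8.70). The Iglv genes took 17.1% and 17.3%. Along the kappa locus the members were uneven, with 16 in the part nearest the J segments, 6 in the middle and 16 in the farthest, of 54, 53 and 53 annotated V genes and pseudogenes. Only members can be assigned in the filtered table, so the outline of the kappa-assigned cells follows in part from which genes were kept. The nearest part held 39.7% of them in TG and 38.4% in WT, and the middle 13.2% and 11.6%. The farthest held 47.1% (128 of 272 cells) in TG and 86 of 172 cells in WT. For all 3 parts of the locus the interval of the TG minus WT difference included 0, the widest reaching from -12.4 to 6.54 percentage points.

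**Figure D4:**
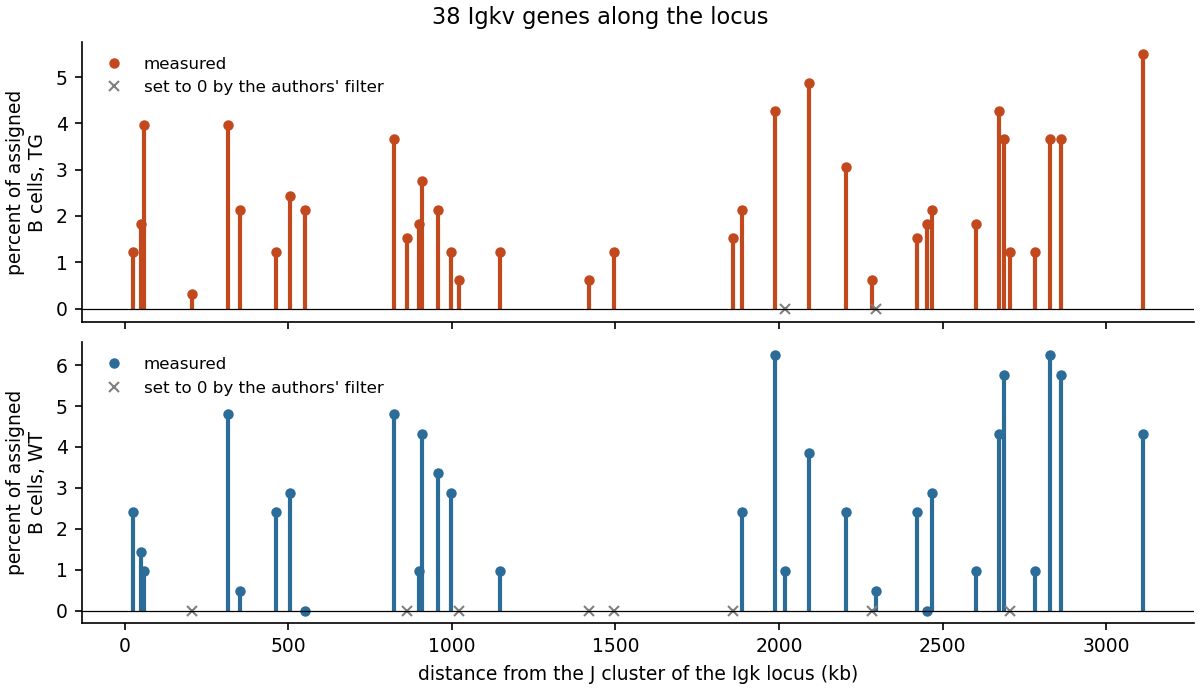
Percent of light-assigned B cells using each Igkv member against its distance from the J segments in kb, TG above and WT below, with crosses for genes set to 0 by the authors' filter. Used genes lie toward both ends of the locus in both genotypes, with few in the middle part. Only members can be assigned, and the members have the same outline.

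Heavy chain usage rested on few cells. Ighv3-6 was assigned in 6 TG and 5 WT B cells. In TG the other assigned heavy genes were Ighv5-4 in 4 cells, Ighv1-82 and Ighv10-1 in 3 each, and Ighv7-3, Ighv1-18, Ighv2-9-1 and Ighv1-26 in 1 each. All WT cells assigned a heavy gene carried Ighv3-6, which follows from the filter, since the 9 other Ighv members were set to 0 in WT. In the unfiltered files, where 53 TG and 21 WT B cells received a heavy gene, Ighv3-6 took 11.3% (4.27 to 23.03) and 23.8% (8.22 to 47.2). Ighv1-80, which is not in the filtered table and is named after its values were seen, took 0 TG and 3 WT cells (difference -14.3 percentage points, -34.6 to -2.79). Both chains were assigned in 4 TG cells and 1 WT cell of the filtered table, too few to show a recurring pair. In the unfiltered files under the rule of at least 2 UMIs and 80%, both chains were assigned in 13 TG and 4 WT B cells, and no pair recurred. With the unfiltered files and a rule of at least 1 UMI and over 50%, both chains were assigned in 155 TG and 98 WT B cells, and 7 and 3 pairs occurred in more than 1 cell. Ighv11-2 with Igkv14-126 was 1 of those 7 pairs in TG, in 2 cells.

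The lambda share depended on which genes were counted. From the V genes it was 17.1% (13.2 to 21.6) in TG and 17.3% (12.4 to 23.2) in WT, and from the constant genes Igkc, Iglc1, Iglc2 and Iglc3 it was 4.58% (3.43 to 5.98) and 5.39% (4.30 to 6.67). The constant genes assigned many more cells, 1113 in TG and 1484 in WT. No cell assigned an Igkv gene was lambda by its constant genes (0 of 272 in TG and 0 of 172 in WT). Of the 56 TG cells assigned an Iglv gene, 16 were lambda, 7 kappa and 33 neither by the constant genes, and of the 36 WT cells the numbers were 16, 3 and 17. In the mouse lambda locus Iglv2 and Iglv3 lie before Iglc2, and Iglv1 before Iglc3 and Iglc1, while Iglc2 and Iglc3 are near copies whose reads could be split. The 14 TG cells assigned Iglv2 held 222 Iglc2 and 28 Iglc1 UMIs, and the 8 assigned Iglv3 held 88 and 11. In WT the 3 cells assigned Iglv2 held 40 and 5, and the 10 assigned Iglv3 held 69 and 1, so Iglc2 was the highest of the lambda constant genes in these cells in both genotypes. The 34 TG cells assigned Iglv1 held 172 Iglc1 and 85 Iglc2 UMIs, and the 23 WT cells held 82 and 97, with 71 and 75 Iglc3 UMIs. Igkc UMIs were more numerous than those of any lambda constant gene in the cells assigned each Iglv gene, with 421 in TG and 150 in WT for Iglv1, 231 and 52 for Iglv2, and 120 and 106 for Iglv3.

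The clearest contrast among V genes lay between the 2 named B cell classes. Igkv14-126 was the assigned light gene of 12 of 82 cells named immature B in TG (14.6%) and of 0 of 246 mature B cells, a share that the exact interval bounds at 1.49%. In WT it was the gene of 12 of 48 (25%) and of 1 of 160 (0.625%). The differences were 14.6 percentage points (8.38 to 23.9) in TG and 24.4 (13.9 to 38.2) in WT. With at least 5 UMIs and 90% required, few cells were left and both intervals included 0 (6.25, -5.91 to 28.3 in TG and 37.5, -8.22 to 69.4 in WT). Counted over UMIs the differences were 6.99 (5.14 to 9.33) and 20.2 (16.4 to 24.6). The intervals over UMIs treat UMIs of the same cell as independent, so they are too narrow. By UMIs, the Igkv14-126 level was 36.01 (TG) and 76.7 CPM (WT) in the cells named immature B, and 0.893 and 1.39 CPM in mature B cells. The gene was found in 16 TG and 34 WT cells named immature B and in 3 and 4 mature B cells, and no cell held more than 6 of its UMIs, so no single cell set the level. The direction was the same in both libraries. These classes were made by clustering the same RNA, so the contrast is a description and not a test.

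Igkv14-126 is known from B-1 cells, a long-lived B cell lineage, where paired with Ighv11-2 it forms a receptor for phosphatidylcholine. Ighv11-2 is not among the 51 genes and was looked up for this known role, and the unfiltered files held 2 UMIs of it, both in TG cells named immature B, and both cells also held Igkv14-126. Ighv12-3, which is likewise known in receptors for phosphatidylcholine, was found in 2 WT cells, both named immature B, and neither held Igkv14-126. Igkv14-126 is given here as the partner of Ighv11-2, so its absence is no negative result for Ighv12-3. Heavy chain V transcripts were too sparse to pair the remaining cells: of all cells with Igkv14-126, 5 of 23 in TG and 1 of 38 in WT held any Ighv UMI. The 23 TG cells include the 2 with Ighv11-2 and 3 cells of cluster 26.

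The RNA markers of immature B cells did not mark the cells named immature B. Of 4 markers of immature or transitional B cells, 3 were lower there than in mature B cells. Cd24a was near equal (294 against 287 CPM in TG, 531 against 487 in WT), with intervals of the log2 ratio that included 0. Vpreb3 stood at 17.2 CPM against 142 in TG and 44.3 against 217 in WT, Cd93 at 1.64 against 7.14 and 0.983 against 13.4, and Sox4 at 0 against 16.7 and 11.8 against 35.6. Genes of follicular B cells were lower as well, with Ighd at 233 CPM against 1699 in TG and 282 against 1257 in WT. Among the antibodies, low IgD and CD23 with high IgM are also known from immature B cells. The median IgM count was 1765 against 423.5 in TG and 537 against 348 in WT, the median CD24 count was 7 against 5 and 19 against 12, the median IgD count was 27 against 704 in TG and 43.5 against 525 in WT, and the median CD23 count was 4 against 234 and 5 against 85. Bhlhe41 (125 against 13.1 CPM in TG, 156 against 19.2 in WT), Zbtb32 (268 against 2.08, and 191 against 2.51) and S100a6 (2644 against 152, and 2208 against 103) were higher. The median CD5 antibody count was 13 against 8 in TG and 29 against 10 in WT, and the median CD43 count was 7 against 2 and 18.5 against 4. These genes and antibodies were chosen after their values were seen, and the cells are called by the name in the deposited table throughout. That name is not a result: whether the cells are immature B cells or B-1 cells was not tested.

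Other light V genes also leaned toward the cells named immature B, and they were picked for it. In TG these were Igkv1-135 (10.98% against 3.66%), Igkv1-110 (6.10% against 0.407%), Igkv1-117 (4.88% against 0.813%) and Iglv2 (8.54% against 2.85%). In WT, Igkv1-135 was used by 4.17% against 4.38%, Igkv1-110 by no assigned cell and Igkv1-117 by 2.08% against 0.625%, so the first 2 did not lean in WT, and Igkv1-117 rested there on 1 cell in each class. In WT the leaning genes were Igkv12-89 (10.4% against 0%) and Iglv2 (6.25% against 0%). In TG, Igkv12-89 was at 4.88% against 1.22%, the same direction. Iglv1 did not lean, with 7.32% against 11.4% in TG and 12.5% against 10.6% in WT, and intervals of both differences that included 0. Lambda by constant genes was 8.14% (4.52 to 13.3) against 3.93% (2.78 to 5.38) in TG and 13.8% (8.94 to 19.95) against 4.33% (3.29 to 5.57) in WT. The summed level of the 32 members kept in both genotypes was higher in the cells named immature B by 0.41 on the log2 scale in TG (0.27 to 0.55) and 0.50 in WT (0.32 to 0.67), while over all V genes it was higher by 0.07 (-0.06 to 0.19) and 0.30 (0.15 to 0.45).

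**Figure D5:**
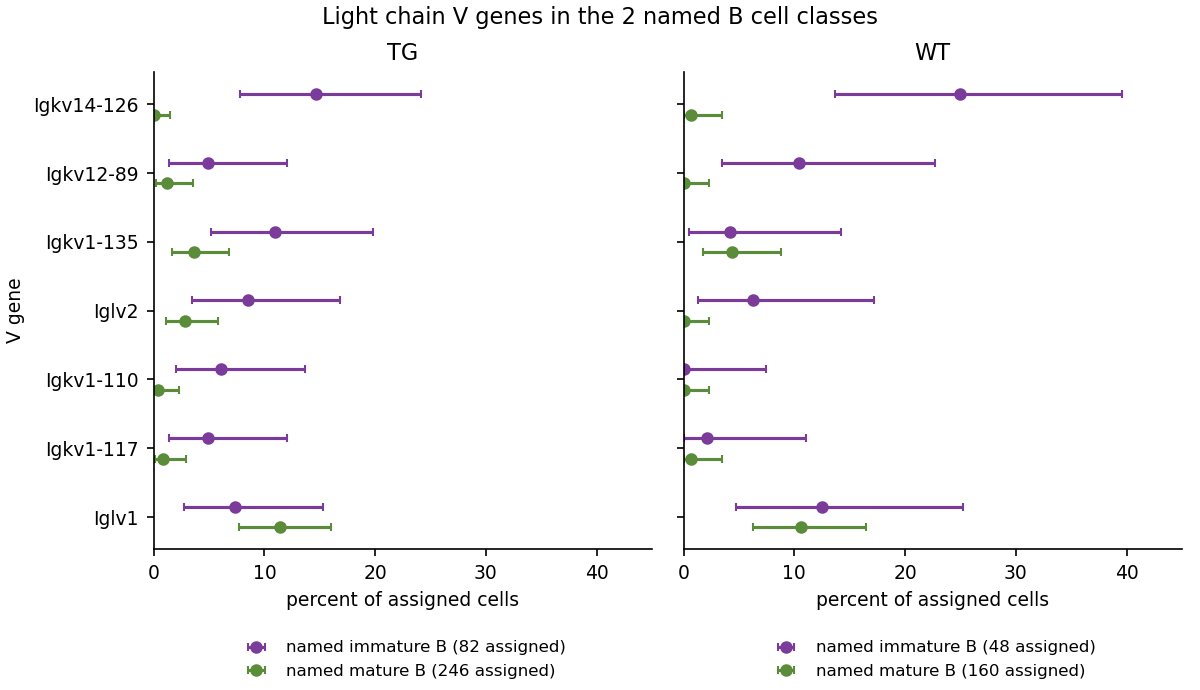
Percent of light-assigned cells using 7 light V genes in the cells named immature B and mature B, TG on the left and WT on the right, with Clopper-Pearson 95% intervals. Igkv14-126 stands at 14.6% and 25% in the former and near 0 in the latter, while Iglv1 overlaps between the classes. The genes other than Iglv1 were chosen for this difference, and Igkv1-110 had no assigned cell in WT.

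Levels of V genes in B cells were higher in TG than in WT. The 32 members kept in both genotypes summed to 406 CPM (388 to 425) in TG and 289 CPM (273 to 304) in WT, a log2 ratio of 0.49 (0.39 to 0.60). The Igkv members gave 0.49 (0.37 to 0.61), the Iglv members 0.55 (0.33 to 0.76), and in the unfiltered files all Ighv genes gave 0.57 (0.32 to 0.82, from 339 TG and 230 WT UMIs) and all V genes 0.50 (0.42 to 0.59). One by one, 26 of the 32 were higher in TG and 6 lower, with a median log2 ratio of 0.51, against -0.04 over the 10292 genes with at least 20 UMIs. A ratio of at least 2 in favour of TG was reached by 7 of the 32 members, against 2.07% of all genes (213), and a ratio of at least 2 in favour of WT by 0, against 2.25% (232). As the members come from 1 capture of each genotype, these ratios compare libraries and not conditions.

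The 7 members at least 2-fold higher in TG were all light chain genes. Igkv3-5 had the highest ratio, with 52 TG and 11 WT UMIs, or 11.4 against 2.39 CPM (log2 ratio 2.25, 1.29 to 3.34). Igkv5-39 stood at 25.1 against 10.6 CPM (1.24) and Iglv2 at 24.2 against 10.6 CPM (1.19). Igkv5-43, Igkv14-100, Igkv8-27 and Igkv1-117 had log2 ratios of 1.31, 1.23, 1.17 and 1.01. Of the 115 TG UMIs of Igkv5-39, 70 lay in 8 cells named immature B, and in mature B cells it stood at 13.4 against 13.6 CPM. B cells with the gene numbered 18 in TG and 20 in WT for Igkv5-39, 12 and 10 for Igkv14-100, and 11 and 12 for Igkv8-27. They numbered 23 and 9 for Igkv3-5, 44 and 26 for Iglv2, 16 and 11 for Igkv5-43, and 28 and 15 for Igkv1-117. Igkv14-126 was the lowest, with 47 TG and 83 WT UMIs (10.3 against 18.0 CPM, log2 ratio -0.81, -1.36 to -0.28), and it was the only member below 0 whose interval excluded 0. The interval lay below 0 for 16.4% of all tested genes (1687). Intervals above 0 were found for 13 of the 32 members, against 11% of all tested genes (1136), among them Iglv1 at 49.5 against 33.2 CPM (0.58, 0.28 to 0.88). In mature B cells alone 5 of 30 members were at least 2-fold higher, against 1.91% of all genes, and 0 lower, against 2.78%. Without the 3 cells with most V UMIs in each genotype 6 of 32 were at least 2-fold higher, against 2.03% of all genes, and 0 lower, against 2.31%.

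Transcripts of other cell types in the B cells moved with genotype and go beside these ratios. The 3 neutrophil markers (S100a8, S100a9, Csf3r) were all found and summed to 260.4 CPM in TG and 129 CPM in WT over all B cells, higher in TG as the V genes were, and their part in the V levels was not tested. In mature B cells the 4 T cell markers (Cd3d, Cd3e, Cd3g, Trac) were all found, summing to 271 CPM in TG and 615 CPM in WT, and in the cells named immature B they summed to 173 and 252 CPM. Cluster 17, 1 of the clusters named mature B, had 29 TG and 155 WT cells, of which 93.1% and 79.4% held Cd3e, and its V level was 259 CPM in TG and 129 CPM in WT. Without B cells holding at least 2 UMIs of Cd3d, Cd3e or Cd3g, the log2 ratio of the summed V level was 0.39, with 8 of 32 members at least 2-fold higher in TG, against 2.17% of all genes, and 1 at least 2-fold lower, against 1.6%, so the 1 lower member is near the background. The direction of the summed ratio was thus the same without those cells.

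Among the constant genes of the same receptors, levels differed less than 2-fold for the most abundant and some switched isotypes were higher in TG. Igkc, the kappa constant gene, had levels of 11560 (TG) and 10320 CPM (WT; log2 ratio 0.16), Ighm (IgM) at 5068 and 5167 CPM (-0.03), Ighd (IgD) at 1308 and 1042 CPM (0.33, 0.27 to 0.38), and Iglc2 at 768 and 774 CPM (-0.01). Iglc1 was at 202 and 153 CPM (0.40), and the switched isotype Ighg2b at 22.3 and 21.5 CPM (0.05, -0.36 to 0.47). Of the 10 constant genes kept in both genotypes, 3 were at least 2-fold higher in TG (against 2.07% of all genes) and 0 lower: Igha at 268 against 81.1 CPM (1.72, 1.56 to 1.895), Ighg3 at 55.2 against 16.7 CPM (1.73, 1.35 to 2.11) and Ighg1 at 57.8 against 27.98 CPM (1.05, 0.74 to 1.36). Ighg2c was set to 0 in WT by the filter. In the unfiltered files it had 639 UMIs in 561 TG cells and 12 UMIs in 3 WT cells. Free immunoglobulin RNA can raise such levels in all cells of a library: Igha UMIs were found in 2600 of the 4647 TG cells and 597 of the 7282 WT cells, and the part of this RNA in the B cell levels was not tested.

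The other genes of the pathway were read by the same 2-fold rule. None of the 6 tested genes for V(D)J recombination and the surrogate light chain, 3 for mutation and switching, 9 for transcription of immunoglobulin genes or 8 receptor partners differed at least 2-fold in either direction, and with 2.07% of all genes higher and 2.25% lower by this rule, a count of 0 among so few genes is near the background. Rag1 and Rag2 (the recombinase), Igll1 and Vpreb2 were not in the filtered table. Vpreb3, known from the pre-B cell receptor, was at 108.5 and 179 CPM (log2 ratio -0.72, -0.88 to -0.56). Pou2af1, a coactivator of immunoglobulin promoters, was at 492 and 505 CPM (-0.04), and Pax5, which sets B cell identity, was at 589 and 580.5 CPM (0.02). Irf4, required for plasma cell formation, was at 115 and 162 CPM (-0.50), and Cd79a at 4465 and 3803 CPM (0.23, 0.20 to 0.26).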

How the data were processed

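The authors captured CD45+ liver cells on BD Rhapsody, aligned reads to mm10 with STAR in the Rhapsody pipeline and deposited error-corrected UMI counts per gene, antibody and cell, a filtered count table with cell types and clusters, and normalized values, which were not used here. The total was 18498477 RNA UMIs in TG cells (median 3298 per cell) and 22216379 in WT cells (median 2653.5). The library files share 267 cell indices, 36 of them among named cells. Per the labels the mice were 10 weeks old, whereas the study's methods give a younger age. UMIs were summed per cell class and scaled to CPM by all RNA UMIs. Intervals at 95% were exact Poisson for CPM, Clopper-Pearson for shares, Newcombe for differences and exact conditional binomial for ratios. Ratios were computed over all genes with at least 20 UMIs. TMM scaling used edgeR 4.0.16 in R 4.3.3; other steps used Python 3.11.15, numpy 2.4.6, scipy 1.17.1, pandas 2.3.3 and scanpy 1.11.5 (Scrublet, expected rate 5%). Doublets were marked but not removed. Scripts were tested on simulated data. The genes named were the 10 Igkv genes with most assigned B cells, every Iglv gene and the 8 Ighv genes with an assigned B cell (10 were planned). Also named were the 3 highest and 3 lowest usage differences among genes with at least 20 assigned cells. The V genes of the 3 cells with most V UMIs per genotype and the V gene with most UMIs outside B cells in each were named too. Others are said to be picked after their values were seen, as were the 7 members past 2-fold. The members, gene lists and comparisons were chosen with earlier results of these data known. The V sequences came from the GENCODE M21 transcripts, with the cysteine codon found as the last in-frame one; recombination signals, promoters and proteins of V genes were not analysed here. Alternatives covered the assignment rule, counting by UMIs, the unfiltered files, thinning, doublets, Jchain cells, T lineage cells, scaling and the count minimum.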

Additional observations from a re-analysis of the deposited data

Results flagged for a closer look

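V transcripts were also present in cells that the comparisons did not use. The cells of the library files that carry no genotype name in the deposited cell table held 9503 V UMIs in the library shared by TG (5379 cells) and 8699 in that shared by WT (16829 cells). Among them, 1120 and 1079 cells had at least 2 Cd79a UMIs and no Cd3e UMI. With light V genes assigned by the same rule, the lambda share of those cells was 15.4% (11.3 to 20.3) and 12.6% (8.10 to 18.5). In the same unnamed cells, 26 and 41 held at least 20 V and at least 50 Jchain UMIs, carrying 68.8% and 79.4% of the V UMIs. By the same rule Iglv1 was the most used light gene, with 31 of 266 assigned cells (11.7%) and 17 of 174 (9.77%). In the named B cells this rule gave a lambda share of 17.1% in TG and 17.3% in WT, against 4.58% and 5.39% by constant genes. The part of background in the lambda and Iglv1 shares of the unnamed cells was not tested. The strain of these cells was not assigned, so no comparison was made. V genes outside the filtered table held a further 1862 UMIs in named TG cells and 955 in named WT cells.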

How the results depend on the processing

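Of the values recomputed under alternatives, 156 moved by less than the counting interval or 1.5 times, 72 moved by more and 1 turned direction. No paired analysis was possible because each genotype has 1 library. Thinning each cell to 1000 UMIs gave 31.8% (TG) and 22.0% (WT) of mature B cells with a V UMI, 33.7% and 34.2% of cells named immature B, and 0.775% and 0.341% outside B cells. Thinned with the members kept in both genotypes these were 26.9% and 21.15%, 34.2% and 30.2%, and 0.716% and 0.305%, and thinned with all V genes of the unfiltered files 38.7% and 30.99%, 38.3% and 35.6%, and 1.01% and 0.538%. Counting all V genes of the unfiltered files gave 72.6% and 53.4%, 88.6% and 80.2%, and 3.61% and 1.52%. The 10 highest cells held 55.2% and 36.9% of V UMIs, and the 3 highest held 27.9% and 20.8% over all V genes. Light chain assignment gave 54.9% and 39.4% of B cells at 1 UMI and over 50%, 3.73% and 0.825% at 5 UMIs and 90%, and 28.6% and 13.7% in the unfiltered files. Heavy chain assignment gave 7.45% and 1.24%, then 0% and 0%, then 4.20% and 1.24%. At 5 UMIs and 90%, with few cells left, Igkv1 usage was 4.25% in TG (difference -2.89), Igkv14 14.9% and 21.4%, Igkv17 19.1% and 7.14%, Igkv4 7.14% in WT, and lambda 7.14% in WT. Igkv17 in WT was 6.59% at 1 UMI and over 50%, and Igkv4 in WT was 4.74% in the unfiltered files. Lambda was 22.6% in TG by UMIs, and 4.58% and 5.39% by constant genes. The Igkv14-126 difference in TG was 6.25 percentage points at 5 UMIs and 90% and 6.99 by UMIs. With no minimum above 1 UMI, 822 and 710 genes were at least 2-fold higher and lower in TG. The thinning with other gene sets, the levels and shares of cells over all V genes, and the removal of B cells with T lineage UMIs were chosen after seeing the data. The causes were not tested.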
